A study of Rattus norvegicus with 16 samples.

Results

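The microvillus cytoskeleton genes were villin 1 (Vil1), plastin 1 (Pls1), espin (Espn), Eps8, ezrin (Ezr), myosin 1a (Myo1a) and myosin 7b (Myo7b). Members were the probes whose gene name in the array files equals 1 of these 7 symbols. This rule uses no measured value, but the 7 symbols were chosen with earlier results of these data known. The rule found 6 genes among 26113 gene names, measured by 7 of 30367 probes that are not controls, with 2 probes for Espn and 1 for each of Vil1, Pls1, Eps8, Ezr and Myo1a. No probe on the arrays carries the name Myo7b. All 7 probes passed the filter on dim probes, which kept 21174 probes. Their Cy5 signal was well above background on each of the 16 arrays, and none had a saturated spot.

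The arrays hold RNA from stomach or from the middle intestine of suckling Wistar Han rats. Rats of group C received saline solution. Rats of group OH received obestatin, a peptide cut from the ghrelin precursor, at 250 nmol/kg by the enteral route. Both were dosed 2 times daily, on days 14 to 21 of life, and euthanised on the last of these days. Each treatment has 4 stomach and 4 middle intestine arrays, each with Cy5-labelled cRNA of 1 rat and Cy3-labelled cRNA of a pool of RNA from all rats of the study. The paper had 4 litters for each treatment, and litter and sex are not given for single arrays.

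A microvillus is a finger of cell membrane held up by a bundle of parallel actin filaments. Enterocytes, the absorptive cells of the gut, carry a dense brush border of microvilli. Villin, plastin 1 and espin cross-link the filaments, and Eps8 sits at the tips of the filaments. Ezrin and myosin 1a tie the bundle to the membrane, and myosin 7b is the motor of the tip complex that links neighbouring microvilli. Other epithelia of the gut, among them gastric surface and parietal cells, also carry ezrin and microvilli.

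Probe coordinates are from the design of the array (rn4 build), and each probe has 60 bases. The Vil1 probe lies at chr9:73769114-73770845 on the plus strand. That of Pls1 lies at chr8:100833523-100833582, that of Eps8 at chr4:174606069-174607344 and that of Ezr at chr1:41178307-41178366, all on the minus strand. The Myo1a probe lies at chr7:67710105-67710164 on the plus strand. Espn probe 1 lies at chr5:169349970-169350029 and Espn probe 2 at chr5:169357225-169359502, both on the minus strand. The span of the Vil1 probe is 1732 bases, that of the Eps8 probe 1276 and that of Espn probe 2 is 2278, so these 60 bases are split by at least 1 intron of the genome. The other probes lie in 1 piece. No rn4 gene annotation was used here, so the exon of each probe is not given. The probes of 5 of the 6 genes are printed to show what was hybridized, and the 2 Espn probes stand side by side because their values differ.
Vil1: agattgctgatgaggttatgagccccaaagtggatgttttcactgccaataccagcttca
Espn probe 1: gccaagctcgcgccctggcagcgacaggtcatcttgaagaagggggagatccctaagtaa
Espn probe 2: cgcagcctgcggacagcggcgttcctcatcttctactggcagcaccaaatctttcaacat
Pls1: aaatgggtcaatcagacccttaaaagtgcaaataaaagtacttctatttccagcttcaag
Eps8: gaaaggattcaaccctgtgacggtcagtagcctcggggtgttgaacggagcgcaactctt
Myo1a: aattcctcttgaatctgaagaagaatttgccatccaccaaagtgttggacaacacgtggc

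Every ratio below is log2 of processed Cy5 over processed Cy3 signal, so 0 means the level of the pool. Ratios of different probes were not compared with each other as levels. Differences were tested in limma over all 16 arrays, with Benjamini-Hochberg adjustment across the 21174 probes and a threshold of 0.05. Exact permutation tests of single probes were two-sided, and 4 arrays against 4 allow no p under 0.029. The limma p-values rest on the spread between arrays within groups, pooled over the 4 groups, and not on the spread of the compared groups alone. They do not cover differences between slides or between litters.

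Median raw signals in Cy5 ranged from 163 to 328 scanner units. In Cy3 they ranged from 188.2 to 195.3 on the C arrays and from 340.8 to 399.2 on the OH arrays. Each group was hybridized on its own slide, so slide cannot be told apart from tissue or from treatment. Both C slides were scanned on 1 day and both OH slides on another, so scan and treatment cannot be told apart. Every comparison of stomach with middle intestine below is therefore also a comparison of slides. In limma, all 8 oxyntic and surface stomach genes passed as higher in C stomach than in C middle intestine, and 7 of 8 enterocyte genes passed as lower. Striated muscle genes varied between stomach arrays, and their mean log2 ratio was 3.61, -1.08, 3.27 and 3.90 on C stomach replicates 1 to 4. In OH stomach it was 1.08, -0.48, -0.30 and 0.84. The mean of 7 smooth muscle genes was 0.91, -1.47, -2.57 and 0.08 in OH stomach and between -2.57 and -1.49 in C stomach. Muscle gene levels thus differed between stomach arrays, and their part in the results below was not tested.

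In rats of group C, the stomach had lower ratios than the middle intestine for Vil1, Espn and Myo1a and a higher ratio for Ezr. Pls1 and Eps8 did not pass the test. Of the 7 probes, 5 passed, 4 lower and 1 higher in stomach. The same 5 had no overlap between the groups, beside 43.7% of all probes. Over all probes, 44.9% passed this comparison, 22.3% lower and 22.7% higher in stomach. The count of members passing lies above this share but comes from only 6 genes, chosen with earlier results of these data known. The median log2 difference of the 6 genes was -0.99, against -0.01 over all probes. In bulk tissue, fewer cells of a type and less RNA per cell cannot be told apart.

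Vil1, which bundles actin filaments and cuts them when calcium rises, had the largest difference among the members. Its log2 ratios on replicates 1 to 4 were -0.04, -0.26, 0.36 and -0.28 in C middle intestine and -2.46, -3.59, -2.71 and -2.23 in C stomach. All stomach values lay below all intestinal values, with a gap of 1.95 between the groups. The ratio was 6.46-fold lower in C stomach (95% interval 3.79- to 11.0-fold, log2 difference -2.69, standard error 0.36, adjusted p = 3.23e-05 in limma). Only 1.98% of all probes had a lower difference. In OH rats the values were 0.05, 1.31, -0.60 and -0.10 in middle intestine and -3.28, -3.34, -3.04 and -3.79 in stomach. The log2 difference was -3.53 (standard error 0.36, adjusted p = 2.5e-06 in limma), again without overlap.

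Espn, an actin bundler with a role in the length of the bundle, was measured by 2 probes. Espn probe 1, the brighter and the one nearer the 3′ end of the transcript, gave -0.54, -0.24, -0.01 and -0.33 in C middle intestine and -1.91, -2.26, -2.17 and -2.10 in C stomach. The 4 stomach arrays were close together and all below the intestinal ones. Its log2 difference was -1.83 (standard error 0.21, adjusted p = 9.27e-06 in limma), or 3.56-fold lower in stomach. Espn probe 2 gave 0.28, 1.33, 0.77 and 1.21 in C middle intestine and 0.26, -0.61, -0.33 and -0.33 in C stomach. Its groups were separated by only 0.02, since C stomach replicate 1 lay just under C middle intestine replicate 1. The log2 difference of probe 2 was -1.15 (standard error 0.25, adjusted p = 0.00207 in limma). Both probes gave the same direction in OH rats, with log2 differences of -2.53 (adjusted p = 3.74e-07) for probe 1 and -1.48 (adjusted p = 0.000338) for probe 2 in limma. Probe 2 was dim, with a mean log2 Cy5 signal between 4.97 and 6.44 in the 4 groups, against 8.31 to 10.74 for probe 1.

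Pls1, the fimbrin of the brush border, varied more between rats than between tissues in group C. The values were -0.17, -0.78, 0.18 and -1.07 in C middle intestine and -0.47, -1.12, -0.67 and -0.63 in C stomach. The groups overlapped, and the log2 difference of -0.26 did not pass (95% interval -1.29 to 0.77, adjusted p = 0.681 in limma). In OH rats the ratios were 0.63, 1.61, -1.13 and -0.75 in middle intestine and -1.68, -1.12, -0.67 and -1.51 in stomach. These groups overlapped as well, because OH middle intestine replicates 3 and 4 were as low as stomach arrays. The log2 difference of -1.33 passed in limma (adjusted p = 0.0405) but not in the exact permutation test (p = 0.143). The call was lost under 11 of 29 alternatives. Among these were Tukey's HSD as in the methods, 7 of the 16 fits without 1 array, and a limma fit of the OH arrays alone (adjusted p = 0.109). Without OH middle intestine replicate 2 the difference was -0.83 (adjusted p = 0.119 in limma).

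Eps8, a protein of the microvillus tip that caps and bundles actin, had a mean ratio between -1.17 and -1.08 in both stomach groups and in C middle intestine, and of -0.60 in OH middle intestine. It gave -1.02, -1.30, -0.79 and -1.27 in C middle intestine and -1.17, -1.05, -1.24 and -1.23 in C stomach. The C stomach values fell within the range of the C middle intestine values. The log2 difference was -0.07 (95% interval -0.59 to 0.44, adjusted p = 0.821 in limma), so a difference of more than 1 log2 unit in either direction lies outside the interval. In OH rats Eps8 gave -0.19, 0.01, -1.37 and -0.85 in middle intestine and -1.37, -1.18, -0.80 and -0.99 in stomach. The log2 difference of -0.48 did not pass (adjusted p = 0.13 in limma), but without OH middle intestine replicate 3 it was -0.74 and passed (adjusted p = 0.0102).

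Ezr was the single member with a higher ratio in stomach. Ezrin links actin filaments to membrane proteins, in parietal cells of the stomach as well as in enterocytes. It gave -0.28, -0.52, -0.59 and -0.65 in C middle intestine and 1.12, 0.92, 1.07 and 0.93 in C stomach. The C stomach arrays lay close together, between 0.92 and 1.12, and all far above the intestinal arrays. The ratio was 2.87-fold higher in C stomach (95% interval 2.16- to 3.82-fold, log2 difference 1.52, standard error 0.19, adjusted p = 1.98e-05 in limma). In OH rats Ezr gave -0.25, 0.28, -0.68 and -0.59 in middle intestine and 0.37, 0.76, 1.07 and 0.60 in stomach. Here the groups were separated by 0.09, and the log2 difference was 1.01 (standard error 0.19, adjusted p = 0.000813 in limma).

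Myo1a, the motor that bridges the bundle and the side membrane of the microvillus, was lower in stomach. Its values were 1.13, 0.90, 2.07 and 0.84 in C middle intestine and 0.05, -1.52, -0.38 and -0.12 in C stomach. C stomach replicate 2 was the lowest of the C arrays by over 1 log2 unit. The ratio was 3.31-fold lower in C stomach (95% interval 1.63- to 6.73-fold, log2 difference -1.73, standard error 0.48, adjusted p = 0.00914 in limma), without overlap. Without C stomach replicate 2 the log2 difference was -1.38 (adjusted p = 0.0312). In OH rats Myo1a gave 0.59, 2.36, -0.13 and 0.89 in middle intestine and -1.59, -1.58, -0.94 and -2.16 in stomach. The ratio was 5.65-fold lower in OH stomach (95% interval 2.78- to 11.49-fold, adjusted p = 0.000841 in limma).

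Myo7b could not be measured by its name. A probe of the transcript TC614407, at chr18:24386776-24386835 on the minus strand, is described by the array design as partly similar to the mouse Myo7b protein. It is no member by the rule and was picked after the values were seen. Its log2 ratios were -0.72, -0.53, -0.12 and -0.50 in C middle intestine and -3.91, -3.58, -4.08 and -4.01 in C stomach. The log2 difference was -3.43 in C rats (standard error 0.26, adjusted p = 9.02e-08 in limma) and -3.57 in OH rats (adjusted p = 6.09e-08).

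**Figure D1:**
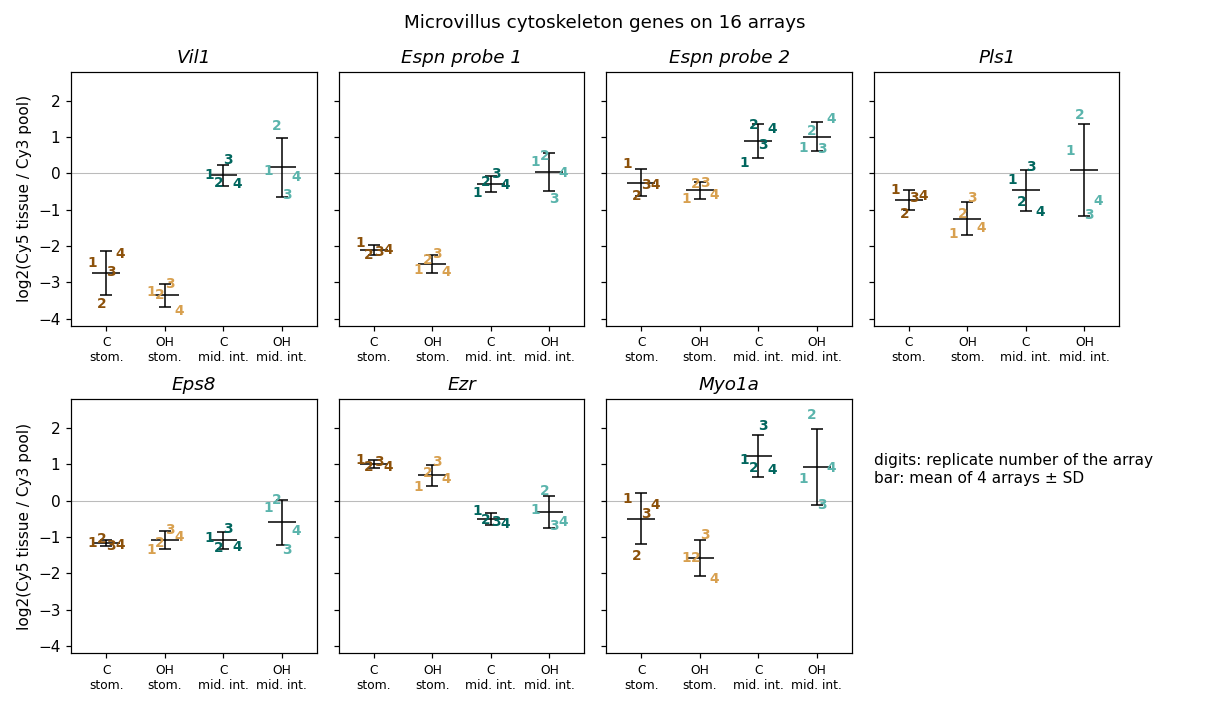
Log2 ratio of tissue (Cy5) to the common pool (Cy3) for the 7 member probes in the 4 groups, with digits for the replicate number of each array and bars for the mean ± SD of 4 arrays. Vil1, both Espn probes and Myo1a sit lower in stomach than in middle intestine, Ezr sits higher, and Eps8 is near the same level in C stomach (-1.17) and C middle intestine (-1.10).

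**Figure D2:**
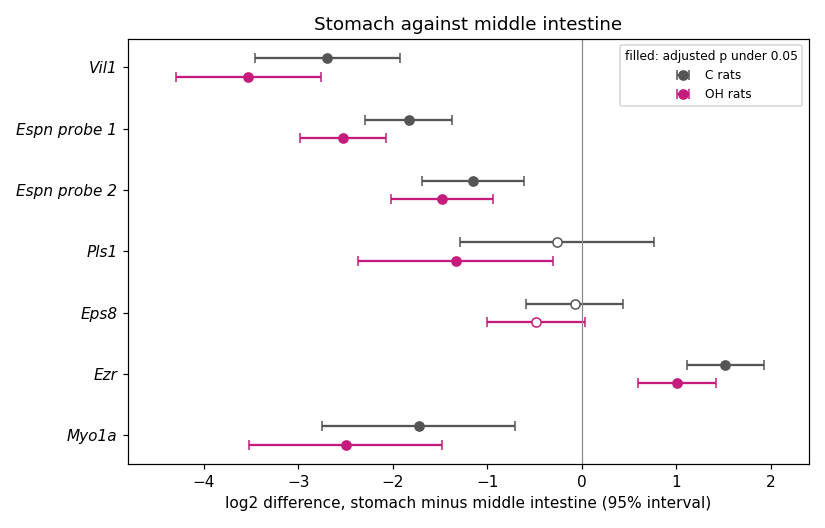
Log2 difference between stomach and middle intestine for each member probe in C and in OH rats, with 95% intervals from limma and filled points where the adjusted p was under the threshold. The intervals of Eps8 cross 0 in both treatments and that of Pls1 crosses 0 in C rats.

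In OH rats, 6 of the 7 probes passed between stomach and middle intestine, 5 lower and 1 higher in stomach, beside 38.2% of all probes. The groups did not overlap for 5 of them, beside 35.2% of all probes. The count is 1 higher than in C rats, and this extra probe was Pls1. A call in OH rats and none in C rats does not show that the tissues differed more after obestatin. That difference was tested as the interaction of tissue and treatment. None of the 7 probes passed it in limma, as was the case for 0% of all probes. At an unadjusted p under 0.05, 1 of the 7 passed, beside 5.85% of all probes.

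Windows of 250 bases before the gene start were taken from RefSeq promoters of the GRCr8 build, which hold 5 of the 7 genes. Those of Vil1 (chr9:83439998-83440247, plus strand) and Ezr (chr1:49416574-49416823, minus strand) are shown because these genes differed most between C stomach and C middle intestine in opposite directions. Capitals mark the CG pairs.
Vil1 upstream: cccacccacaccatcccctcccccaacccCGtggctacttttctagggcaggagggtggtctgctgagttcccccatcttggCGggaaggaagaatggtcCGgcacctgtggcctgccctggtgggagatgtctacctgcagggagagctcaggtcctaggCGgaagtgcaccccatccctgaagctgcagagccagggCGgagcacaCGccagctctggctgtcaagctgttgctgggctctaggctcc
Ezr upstream: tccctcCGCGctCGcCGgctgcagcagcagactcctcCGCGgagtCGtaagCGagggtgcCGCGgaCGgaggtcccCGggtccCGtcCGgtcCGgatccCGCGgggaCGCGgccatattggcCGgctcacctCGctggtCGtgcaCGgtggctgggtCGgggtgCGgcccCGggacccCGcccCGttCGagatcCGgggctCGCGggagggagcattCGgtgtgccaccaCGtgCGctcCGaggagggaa

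The Vil1 window held 6 CG pairs and 64.0% G and C bases, and the Ezr window held 36 CG pairs and 74.4%. Over 33469 promoters of the same length, the median was 5 CG pairs and 51.2%, and 97.8% had fewer CG pairs than Ezr. The windows of Espn, Pls1 and Myo1a held 25, 9 and 1 CG pairs, and for these genes the window does not end at the outermost gene start of the RefSeq table. The letters TATAAA, searched on both strands, occurred in none of the 5 windows and in 12.9% of all promoters. The letters TTTAT, part of the site bound by the intestinal factor Cdx2, were found in the Pls1 window and in 39.3% of all promoters. These counts describe the windows and were not related to the ratios by a test.

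No member passed the threshold between OH and C in stomach. None of the 7 probes passed in limma, as was the case for 0% of all 21174 probes, and the smallest adjusted p of a member was 0.454. At an unadjusted p under 0.05, 1 of the 7 probes passed, beside 10.6% of all probes. With Tukey's HSD as in the methods none of the 7 probes passed, beside 3.35% of all probes. The estimates for 5 of the 6 genes were lower in OH, beside 48.8% of all probes, with a median log2 difference of -0.45 against 0.01 over all probes. C and OH stomach overlapped for all 7 probes, while they did not overlap for 7.6% of all probes.

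General epithelial genes (Epcam, Cdh1, Krt8, Krt18, Krt19 and Cldn7) had lower estimates in OH stomach for 6 of 6 genes, with a median of -0.48 and none past the threshold. Their mean ratio was 0.19, -0.34, 0.01 and 0.30 on C stomach replicates 1 to 4 and -0.67, -0.35, -0.17 and -0.52 on those of OH stomach. All 7 smooth muscle genes had higher estimates in OH stomach, with a median of 1.46. All 6 striated muscle genes had lower estimates there, with a median of -2.26, as had 6 of 7 forestomach genes, with a median of -0.56. None of the genes of these lists passed in limma. The part of these in the estimates of the members was not tested.

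The estimate farthest from 0 was that of Myo1a, at -1.08 (95% interval -2.10 to -0.05, unadjusted p = 0.0403, adjusted p = 0.454 in limma, exact permutation p = 0.0571). Mean ratios were -0.49 ± 0.71 (SD, n = 4) for C stomach and, for OH stomach, -1.57 ± 0.50 (SD, n = 4). The mean log2 Cy5 signal of Myo1a differed by -0.14 between OH and C, while the Cy3 signal of the pool differed by 0.94. These signals were not scaled between arrays. Over all probes the Cy3 signal differed by a median of 0.33 and the Cy5 signal by 0.32. In a limma test of Cy3 alone, also without such scaling, 62.3% of the probes passed. That share does not separate single probes from the brightness of whole arrays. From Cy5 alone, scaled by the 75th percentile of each array, the log2 difference of Myo1a was -0.49 (adjusted p = 0.68). With array weights it was -1.45 and passed (adjusted p = 0.0281), beside 5.37% of all probes that passed with these weights.

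The other members gave smaller values in stomach. Vil1 had mean ratios of -2.75 ± 0.60 (SD, n = 4) with saline solution and -3.36 ± 0.32 (SD, n = 4) with obestatin, which differ by -0.61 (95% interval -1.38 to 0.15). Pls1 differed by -0.52 (95% interval -1.55 to 0.51), Ezr by -0.31 (95% interval -0.72 to 0.10) and Eps8 by 0.09 (95% interval -0.43 to 0.60). The Espn probes differed by -0.38 and -0.21. A decrease of 1 log2 unit lies within the intervals of Vil1, Pls1 and Myo1a. Without C stomach replicate 2, whose striated muscle ratios were low, none of the 7 probes passed and the differences were -1.42 for Myo1a (adjusted p = 0.194 in limma) and -0.90 for Vil1 (adjusted p = 0.27), while 1.47% of all probes passed.

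In the middle intestine none of the 7 probes passed between OH and C either, beside 0.368% of all probes. The smallest adjusted p was 0.503 in limma, none of the 7 probes passed at an unadjusted p under 0.05, beside 10.5% of all probes, and none passed with Tukey's HSD, beside 4.42%. The estimates of 5 of the 6 genes were higher in OH, while those of 49.8% of all probes were lower, and the median log2 difference was 0.27 against 0.00 over all probes. Eps8 had the lowest p, with mean ratios of -1.10 ± 0.24 (SD, n = 4) with saline solution and -0.60 ± 0.63 (SD, n = 4) with obestatin, which differ by 0.50 (95% interval -0.02 to 1.01). Pls1 had the largest estimate, 0.55 (95% interval -0.48 to 1.58), with an SD of 1.27 among the OH rats against 0.56 among the C rats. Vil1 differed by 0.22, Espn by 0.31 and 0.11, Ezr by 0.20 and Myo1a by -0.31. C and OH overlapped for all 7 probes, while 5.86% of all probes had no overlap. Both comparisons of OH with C rest on slides scanned on different days. In middle intestine 30.6% of the probes passed the same unscaled test of the Cy3 pool alone. The median difference over all probes there was 0.08 in Cy3 and 0.09 in Cy5.

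The estimates of OH against C were lower in stomach than in middle intestine for all 7 probes, while 51% of all probes had the opposite order. The difference between the tissues ranged from 0.33 for Espn probe 2 to 1.07 for Pls1. No member and no other probe passed in limma, and the smallest adjusted p of a member was 0.836. Espn probe 1 had a difference of 0.69 (95% interval 0.05 to 1.34) and an unadjusted p of 0.0378. The genes were measured on the same arrays, so their common direction is not a count of independent results.

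**Figure D3:**
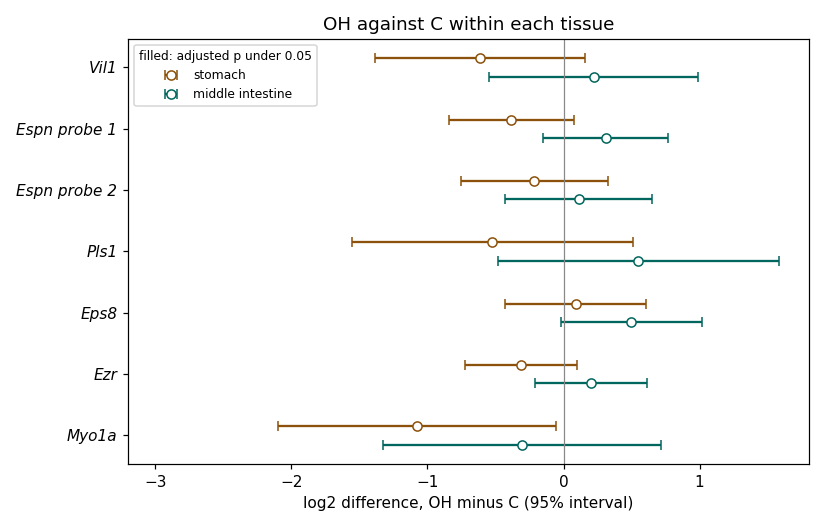
Log2 difference between OH and C rats for each member probe in stomach and in middle intestine, with 95% intervals from limma. No point is filled, since no adjusted p was under the threshold, and the interval of Myo1a in stomach (-2.10 to -0.05) is the one that leaves out 0.

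Within a group, most members shared the array of the highest or of the lowest ratio. In OH middle intestine replicate 2 had the highest ratio and replicate 3 the lowest for all 6 genes, read on the brightest probe of each. In C middle intestine replicate 3 was highest for 5 of 6 genes and replicate 4 lowest for 4, while Ezr was highest on replicate 1. In OH stomach replicate 3 was highest for all 6 genes, while replicates 1 and 4 were each lowest for 3. In C stomach replicate 2 was lowest for 5 of 6 genes, while Eps8 was highest there. These orders were not particular to the members. The general epithelial genes were also highest on replicate 2 (0.84) and lowest on replicate 3 (-0.07) of OH middle intestine, and highest on replicate 3 of OH stomach. Crypt and proliferation genes were instead highest on replicate 3 of OH middle intestine (0.79). No share over all probes is given for these places or for the relations below.

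The mean ratio of 8 enterocyte genes (Fabp1, Fabp2, Apoa1, Apoa4, Alpi, Lct, Anpep and Slc5a1) moved with the members in the intestine. It was -1.23, -0.79, -0.07 and -0.59 on C middle intestine replicates 1 to 4 and 0.31, 1.22, -1.54 and -0.41 on those of OH. The highest and the lowest of the 8 arrays were the same OH rats as for all 6 genes. The mean of the smooth muscle genes was lowest on replicate 2 and highest on replicate 3 of OH middle intestine, at -0.74, -1.09, -0.25 and -0.40 on replicates 1 to 4. The part of the tissue mixture in this spread was not tested.

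Over the 8 middle intestine arrays, Espn probe 1 followed the enterocyte mean most closely among the members. The exact permutation tests of these relations exchanged all 8 arrays freely and took no account of slide or treatment. Pearson's r was 0.964 (exact permutation p = 0.000149, adjusted p = 0.000596 over 8 relations) and Spearman's rho 0.952 (exact permutation p = 0.00114). Without the 2 arrays farthest from the median of the enterocyte mean r was 0.949. Eps8 gave an r of 0.905 (exact permutation p = 0.00136) and a rho of 0.929 (exact permutation p = 0.00223), and r was 0.783 without those 2 arrays. For Vil1 r was 0.883 (exact permutation p = 0.00384) and rho 0.81 (exact permutation p = 0.0218), and for Pls1 r was 0.865 (exact permutation p = 0.00583) and rho 0.833 (exact permutation p = 0.0154). Without those 2 arrays r was 0.516 for Vil1 and 0.585 for Pls1, so both relations rest in part on them.

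For Ezr and Myo1a r fell to near 0 without the 2 extreme rats. Ezr gave an r of 0.737 (exact permutation p = 0.0373) and a rho of 0.595 (exact permutation p = 0.132), and Myo1a an r of 0.716 (exact permutation p = 0.0432) and a rho of 0.429 (exact permutation p = 0.299). Without those 2 arrays r was 0.02 and 0.04. Espn probe 2 did not follow the list, with an r of 0.307 (exact permutation p = 0.461) and a rho of 0.286 (exact permutation p = 0.501). Each slide held 4 arrays, too few for a value of its own. With each array taken as its deviation from the mean of its slide, r was 0.961 for Espn probe 1 and 0.277 for Espn probe 2. It was between 0.703 and 0.905 for the other members, with 0.703 for Ezr and 0.855 for Myo1a. Values of r from deviations are not given without the 2 extreme rats.

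**Figure D4:**
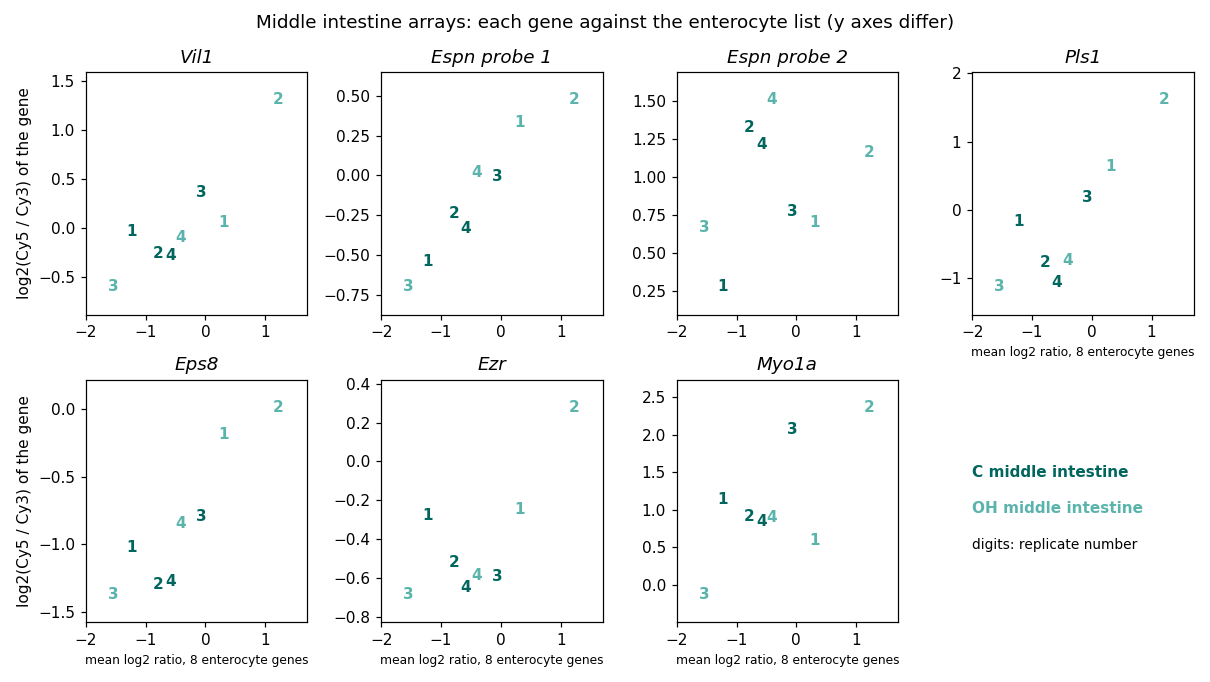
Log2 ratio of each member probe against the mean log2 ratio of 8 enterocyte genes on the 8 middle intestine arrays, with digits for the replicate number and colours for C and OH. OH replicate 2 (1.22 on the x axis) and OH replicate 3 (-1.54) are the extremes, and Espn probe 1 rises along the axis with an r of 0.964 while Espn probe 2 does not.

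The genes that work with the microvillus core were read from a list of 39 partners, of which 38 were kept. Between C stomach and C middle intestine 14 passed as higher and 14 as lower in stomach, beside 22.7% and 22.3% of all probes, with a median log2 difference of 0.04. In OH rats 11 passed as higher and 16 as lower, beside 19.2% and 19.1% of all probes.

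The intermicrovillar adhesion genes, whose products tie the tips of neighbouring microvilli together and work with myosin 7b, were lower in stomach in 5 of 5 cases in both treatments. Their median log2 difference was -3.38 in C and -3.62 in OH rats. Ush1c, the scaffold of the tip complex, differed by -3.81 (standard error 0.19, adjusted p = 1.38e-09 in limma), and the protocadherin Cdhr5 by -3.42 (standard error 0.24, adjusted p = 4.72e-08). The mean log2 ratio of the 5 genes lay between -3.15 and -2.84 on the C stomach arrays and between -0.18 and 0.36 on the C middle intestine arrays.

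Among the other bundlers and villin relatives, 4 of 7 passed as higher in stomach and 1 as lower in C rats. The gene that passed as lower was Scin, a calcium-dependent actin severing relative of villin, at -4.73 (standard error 0.24, adjusted p = 1.67e-09 in limma). Its Cy5 signal was well above background on only 1 of 4 arrays in each stomach group, against 4 of 4 in each middle intestine group. The stomach ratio of Scin is thus near the background, and the size of its difference is uncertain. Vill, a villin-like gene, was higher by 2.47 (standard error 0.38, adjusted p = 0.000129), against the direction of Vil1. Of 6 genes of actin nucleation and the microvillus tip, 2 passed as higher and 2 as lower in C stomach. Eps8l1, a relative of Eps8, was higher by 4.74 (standard error 0.26, adjusted p = 3.32e-09), and Baiap2l2, which binds and bends membranes, differed by -1.63 (adjusted p = 2.35e-06).

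Of 7 genes for membrane linkers and their kinases, 3 passed as higher and 2 as lower in C stomach. Slc9a3r2 was higher by 2.28 (adjusted p = 3.9e-06 in limma) and the scaffold Pdzk1 differed by -2.06 (adjusted p = 0.000619). Of 7 other myosins, 2 passed as higher and 3 as lower. Myo5b, a motor of apical membrane traffic, was higher by 1.52 (adjusted p = 0.00237), and Myo7a, a class VII myosin as Myo7b is, differed by -1.36 (adjusted p = 0.0115). Of 4 genes of apical membrane traffic, 2 passed as higher and 1 as lower. Stxbp2 was higher by 1.16 (adjusted p = 0.00509) and Rab8a differed by -0.39 (adjusted p = 0.0042). Of the core actins, Actg1 was higher by 0.67 (adjusted p = 0.00116), and its probe may share signal with the near-identical Actb.

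Between OH and C, 0 of the 38 partners passed in either tissue in limma, beside 0% of all probes in stomach and 0.368% in middle intestine. In middle intestine 31 of the 38 estimates were higher and 7 lower in OH, while 49.8% of all probes were lower, and the median log2 difference was 0.22 against 0.00 over all probes. In stomach 15 were higher and 23 lower, beside 48.8% of all probes lower, with a median of -0.12 against 0.01.

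**Figure D5:**
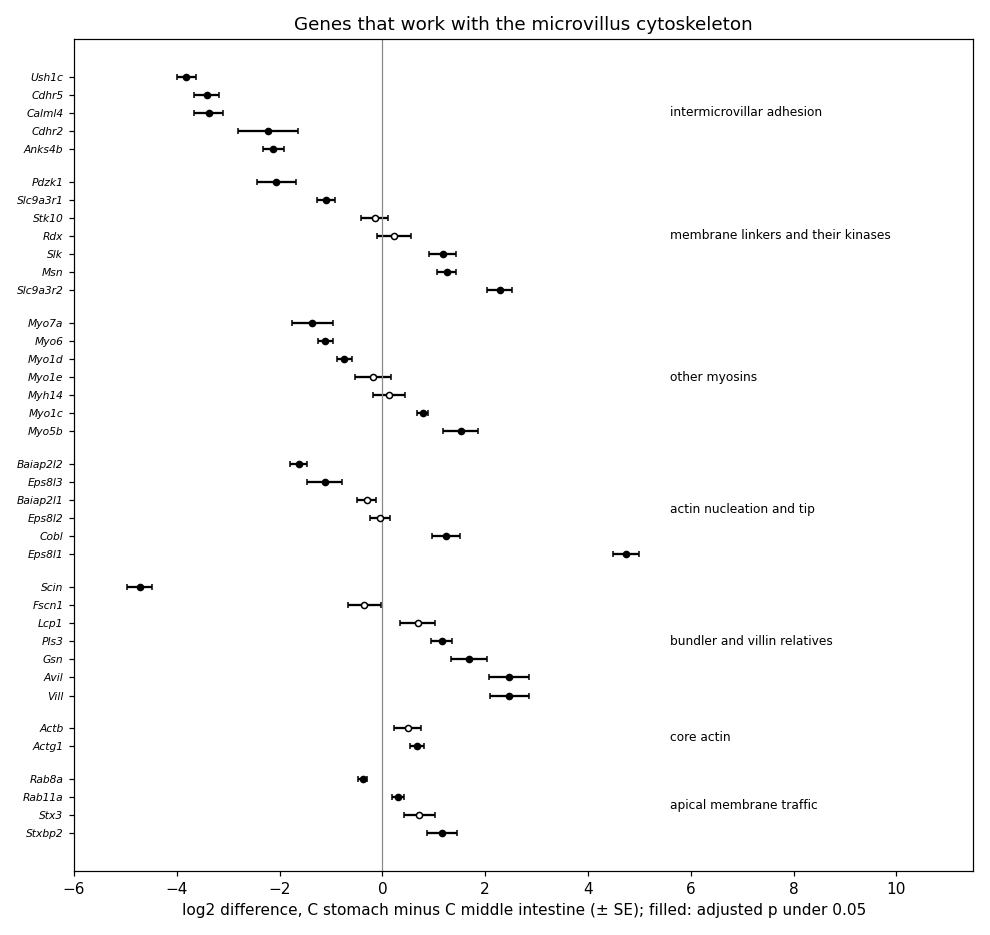
Log2 difference between C stomach and C middle intestine for the 38 partner genes with their standard errors, grouped by list, with filled points where the adjusted p was under the threshold. All 5 intermicrovillar adhesion genes lie left of 0, while the other lists hold genes on both sides or, for core actin, on the right.

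The genes most like each member were found by the root mean square difference of centred ratios over 16 arrays, among 13214 genes. For Vil1 they were Tm6sf2 (0.36) and Trim14 (0.39), and for Myo1a they were Coro2a (0.38) and Nags (0.39). For Espn they were Dgat1 (0.21) and the adhesion gene Anks4b (0.24). Chp2 (0.33) and Bpnt1 (0.35) were nearest to Pls1, Clint1 (0.19) and P4hb (0.19) to Eps8, and Itpr3 (0.18) and Slc12a7 (0.18) to Ezr. The members were not each other's nearest genes. The member nearest to Vil1 was Espn, at rank 76, the one nearest to Myo1a was Espn, at rank 24, and the one nearest to Ezr was Eps8, at rank 7135.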

How the data were processed

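The study used 16 two-colour Agilent microarrays (SurePrint G3 Rat GE 8x60K). For each array the authors deposited Feature Extraction output, which holds the raw intensity and the processed intensity of each spot in Cy5 and Cy3 after background subtraction and Lowess normalization. The labels name version 10.7.3.1 of this software and the file headers 10.10.1.1. A deposited value table gives log10 of Cy5 over Cy3 per spot, equal to those of the scanner output on all 62976 spots within a relative tolerance of 0.005. The median of each of its columns was 0, and its direction is that of the scanner files.

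The log2 ratio of the processed intensities was taken per spot. Control spots and outlier spots were left out and spots of a probe were averaged. A probe was kept if its Cy5 signal was marked well above background on 4 of 4 arrays in some group and each group had 3 or more values. This removed 9193 probes, and 43 of those kept have a missing value. Ratios were fitted in limma 3.58.1 (R 4.3.3, prior degrees of freedom 2.47) with 1 mean per group and no block. The fit was tested on simulated ratios with independent errors, which hold no effect of slide, scan or shared rat and so do not test for these. Figures were drawn with matplotlib 3.10.9. The brightest probe in Cy5 stood for a gene with several.

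Named were all members, the 2 genes nearest to each, and of each partner list the 2 genes with the largest difference past the threshold between C stomach and C middle intestine. Marker lists for stomach, forestomach, enterocytes, epithelium, muscle, pancreas, leukocytes, tuft cells and crypts were read beside them. The members and lists were chosen with earlier results of these data known. Alternatives covered normalization, scaling, filters, the arrays in the fit, blocks, weights, the methods' ANOVA with Tukey's HSD, and each array left out in turn. Beside the 39 listed partners, 1 further partner gene is not reported here, and the counts leave it out.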

Additional observations from a re-analysis of the deposited data

How the results depend on the processing

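The 5 probes that passed between C stomach and C middle intestine also numbered 5 under every alternative with 7 probes tested, and 4 with 1 probe per gene, which leaves out Espn probe 2. With each array left out in turn the count was 5 throughout for C rats and ranged from 5 to 7 for OH rats. Over all probes the counts then ranged from 8089 to 9795 in C rats and from 6897 to 8375 in OH rats. For OH against C the count of members stayed at 0 in both tissues and for their difference with each array left out. In stomach it was 1 with array weights and 1 at an unadjusted p, Myo1a in both cases. The difference between the tissues had 1 probe at an unadjusted p, Espn probe 1. The cause was not tested.

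Estimates of OH against C changed sign with Cy5 alone for Eps8 in stomach (-0.080), and in middle intestine for Espn probe 2 (-0.15) and Myo1a (0.13). With each array left out in turn the range crossed 0 for Eps8 in stomach (-0.0056 to 0.18), and in middle intestine for Vil1 (-0.16 to 0.48), Myo1a (-0.78 to 0.047) and Espn probe 2 (-0.10 to 0.25, with -0.055 and -0.095 the values below 0). Between C stomach and C middle intestine that of Eps8 ran from -0.14 to 0.027. None of these values passed a threshold under either setting.

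Whether stomach and intestine arrays of one number come from the same rat is not given in the sources used here. Across probes, same-numbered deviations of the tissues correlated between 0.058 and 0.245 in C rats, where 3 of 4 C stomach arrays correlated best with their own number. In OH rats they correlated between -0.12 and 0.32, with 2 of 4. Same-numbered C and OH arrays of 1 tissue are from different rats. Their correlations ranged from -0.40 to 0.51 in middle intestine and from -0.36 to 0.30 in stomach. The paper describes 4 rats per group as the source of both tissues, without tying array numbers to rats. The correlations do not settle whether the numbers pair the samples, and the main fit treats all arrays as unpaired. With a random replicate block within each treatment the counts of members were 5 in C rats, 6 in OH rats and 0 for OH against C. Over all 21174 probes this block gave 10271 in C rats and 8806 in OH rats. For OH against C it gave 1 in stomach and 83 in middle intestine. With a replicate block, 5 of 7 probes passed in C rats, 5 in OH rats, where Pls1 was lost (adjusted p = 0.0538), and 0 for OH against C. Over all probes, OH against C in middle intestine gave 78 and, with this shared block, 40.

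The count over all probes for OH against C in stomach was 0 in limma, 311 without C stomach replicate 2, 639 without the filter on dim probes, 709 with Tukey's HSD and 1138 with array weights. In middle intestine it ranged from 12 to 88 with each array left out and was 1 with the arrays of the 2 groups alone, 593 with Cy5 alone, 936 with Tukey's HSD and 1378 without the filter on dim probes. The 4 arrays a group limit the precision of all comparisons.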

Other observations

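The marker lists gave the following counts of genes past the threshold in limma between C stomach and C middle intestine. Higher in stomach were 6 of 7 forestomach genes, 5 of 6 striated muscle genes, 4 of 6 pancreas genes and 1 of 3 tuft cell genes. Lower in stomach were 4 of 5 crypt and proliferation genes, 2 of 7 smooth muscle genes and 2 of 4 leukocyte genes. Of 6 general epithelial genes, 3 were higher and 2 lower. None of the genes of these lists, of the enterocyte list or of the oxyntic and surface stomach list passed between OH and C in either tissue. In the 28 sets of 4 arrays formed by 7 member probes and 4 groups, 0 held an array set apart from the others by Dixon's test at the 95% level.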
